A study of Homo sapiens with 12 samples.

Results

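The 10 genes described here, SPI1, GFI1, IRF8, RUNX1, MYB, KLF4, GATA2, LMO2, FLI1 and LYL1, encode transcription factors and 1 bridging cofactor that set blood cell lineage, and they were taken by gene symbol from a table of 58233 genes. Of these 10 genes, 9 passed a filter on low values, and KLF4 did not. RNA was sequenced from HL-60, an established human acute myeloid leukaemia line whose cells resemble early granulocyte precursors, in 12 libraries, 3 in each of 4 groups. Cells of this one line, all wild type in the labels and grown in the same medium, were left untreated or were exposed for 3 h to 100 nM all-trans retinoic acid (ATRA), to 500 nM palbociclib, or to both agents at these doses (ATRA+palbociclib). ATRA activates retinoic acid receptors and drives granulocytic differentiation, and palbociclib inhibits the cell cycle kinases CDK4 and CDK6. The controls were labelled untreated, with no vehicle named. The study's methods state independent experiments as the general rule and triplicates for the sequencing, without saying of these libraries whether they were separate cultures, so p-values measure the spread between these libraries, which may be technical.

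Blood cell fate is set by a small network of such factors, many of which bind one another and compete for shared DNA sites. GATA2, MYB, RUNX1, LMO2, LYL1 and FLI1 are known from stem and progenitor cells, where several of them bind together. SPI1, the gene of the ETS factor PU.1, is needed for both granulocytes and monocytes. GFI1 is a zinc finger repressor needed for neutrophils, while IRF8 and KLF4 are known for their part in monocyte formation. ATRA moves HL-60 cells along the granulocytic branch, and the comparisons ask how transcripts of this network stood after 3 h of each agent and of the pair.

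The culture showed the markers of its labelled cell type. Of 9 promyelocyte genes, 8 were at 5 or more reads per kilobase of transcript, scaled to the mapped reads of the library (RPKM), in all 12 libraries, and ELANE, the neutrophil elastase gene, was at 0 or 1 throughout. Of 24 genes that mark T, B, erythroid, megakaryocytic, epithelial or stromal cells, 21 were at 0 in every library, and the T cell gene TRAC was the one above 1, at 2 to 5 in all groups. Values summed to between 358455 and 390247 RPKM per library, and no library stood out as a copy of another. The table gives whole-number RPKM and no read totals, so depth per library is unknown and a gene near 10 RPKM is resolved in steps of 1. In bulk RNA, fewer cells expressing a gene and less RNA per cell cannot be told apart.

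The upstream sequences of members that moved with ATRA are shown first, since retinoic acid receptors bind DNA at repeats of the letters AGGTCA. RefSeq windows (GRCh38.p14) from 250 bases before to 50 after a start site matched 7 of the 10 genes, in 11 windows. SPI1, LMO2 and FLI1 had no entry. Searched on both strands, AGGTCA (reverse complement TGACCT) was found in 4 of these 11 windows and in 13.8% of all 35116 windows. The 4 belong to 3 members, GFI1, GATA2 and IRF8, and both IRF8 windows overlap and hold the same site. The 250 bases upstream of the first listed start site of GFI1 (chr1:92486926-92487175, minus strand), GATA2 (chr3:128493202-128493451, minus strand) and MYB (chr6:135181058-135181307, plus strand) are given with matches to any searched motif in capitals, 5′ to 3′. For IRF8, whose match began 3 bases after the first listed start site, 30 bases around it are given (chr16:85902821-85902850, plus strand). The listed IRF8 start sites lie inside the gene, 3714 and 3899 bases after its GENCODE start. The start sites shown for GFI1, GATA2 and MYB lie at the GENCODE gene start.
GFI1: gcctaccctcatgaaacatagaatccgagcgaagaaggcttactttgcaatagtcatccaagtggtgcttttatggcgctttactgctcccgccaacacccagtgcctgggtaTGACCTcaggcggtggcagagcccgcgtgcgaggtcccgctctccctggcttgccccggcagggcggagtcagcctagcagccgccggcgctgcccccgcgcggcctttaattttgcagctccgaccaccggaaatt
GATA2: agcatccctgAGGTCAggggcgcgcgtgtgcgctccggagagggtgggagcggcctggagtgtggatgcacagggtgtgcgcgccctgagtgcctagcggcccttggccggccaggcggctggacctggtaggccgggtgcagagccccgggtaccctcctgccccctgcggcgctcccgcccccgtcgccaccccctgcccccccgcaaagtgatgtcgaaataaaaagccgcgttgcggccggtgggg
IRF8: ctcagggctgtgAGGTCAtggaggccagca
MYB: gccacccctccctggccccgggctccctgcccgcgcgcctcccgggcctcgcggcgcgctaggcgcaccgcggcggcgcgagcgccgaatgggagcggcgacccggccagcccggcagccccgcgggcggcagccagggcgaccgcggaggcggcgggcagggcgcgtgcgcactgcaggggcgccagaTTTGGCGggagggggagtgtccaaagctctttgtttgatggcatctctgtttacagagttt
The capitals mark TGACCT in GFI1, starting at position -137 from the start site, AGGTCA in GATA2, at -240, and AGGTCA in IRF8. In MYB they mark TTTGGCG, an E2F site, at -61, which 1.92% of all windows held. The MYB window also held GAGGAA, the core bound by PU.1, as its reverse complement TTCCTC at 20 bases after the start, a motif in 27.9% of windows and in 6 of the 11 windows of these genes. The other motifs searched were AGTTCA (10.4% of windows, none of the 11), TTTCCCG (4.29%, KLF4), AGATAA bound by GATA factors (10.3%, LYL1), TGTGGT bound by RUNX factors (13.1%, 1 GFI1 and 1 IRF8 window) and AAATCA bound by GFI1 (13.2%, KLF4). A match describes these letters and is no evidence of binding.

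In untreated cells the 10 transcripts spanned a wide range of levels, here in RPKM, a per-length scale on which genes can be set side by side. SPI1 was the highest at 83.7 ± 3.21 RPKM (SD, n = 3), above 92.5% of the 7820 genes tested. IRF8 followed at 60.7 ± 5.51, MYB at 58.7 ± 5.03 and GFI1 at 55.3 ± 2.08, and the ranges of neighbours among these 3 overlapped. LMO2 stood at 37.0 ± 1.73 and LYL1 at 20.3 ± 2.08, each apart from its neighbours. RUNX1 at 10.7 ± 0.577, GATA2 at 9.67 ± 2.52 and FLI1 at 9.33 ± 0.577 overlapped in turn, and KLF4 was lowest, at 2 RPKM in each library. Under ATRA, GFI1 stood at rank 2 and MYB at rank 5 of the 10, and neither overlapped its neighbours in that order.

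**Figure D1:**
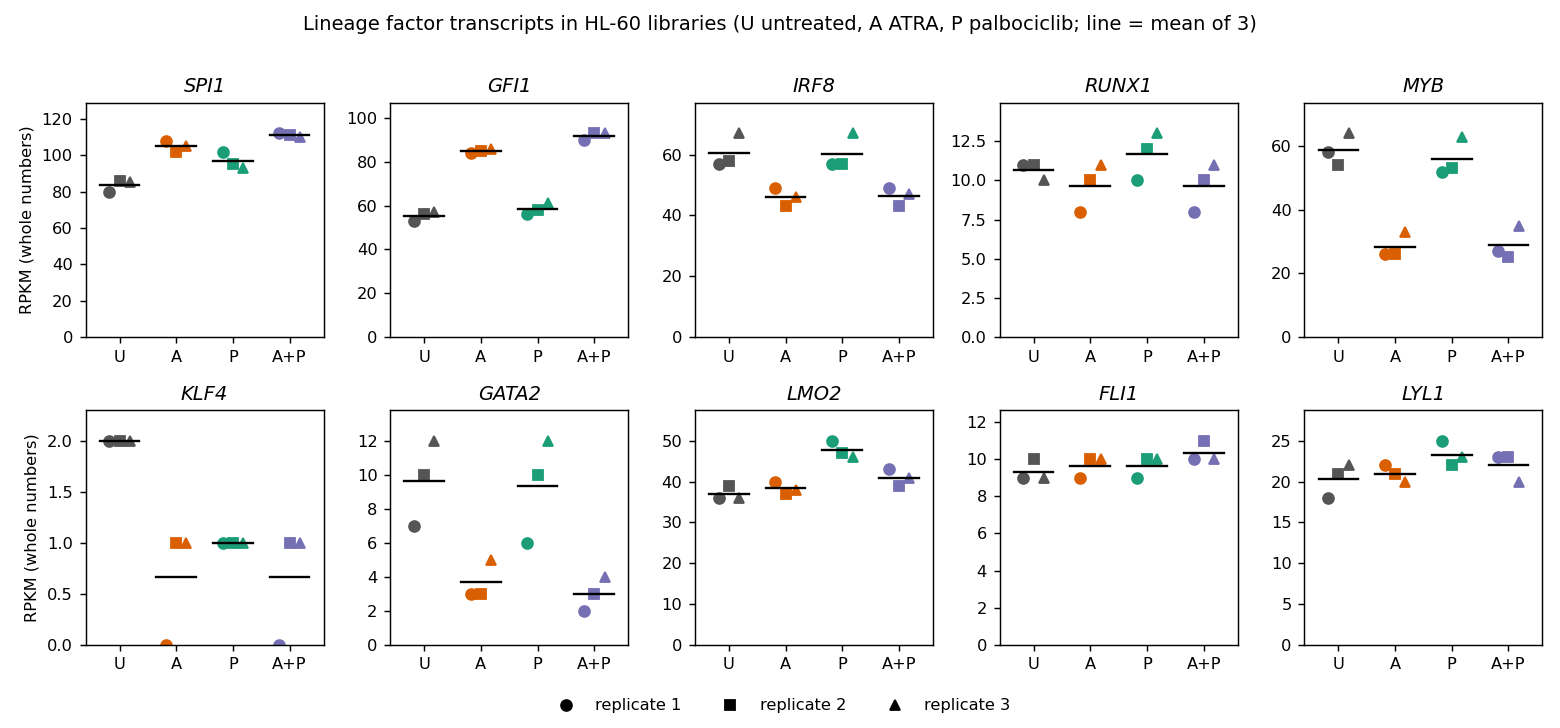
RPKM of each member in each of the 12 libraries, with a linear axis from 0 in every panel; colours are the 4 groups, symbols the replicate numbers and lines the means of 3 libraries. GFI1 sits at 53 to 61 without ATRA and at 84 to 93 with it, and MYB at 52 to 64 without and 25 to 35 with it.

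Within 3 h of ATRA alone, the progenitor factors GATA2 and MYB and the monocytic factor IRF8 fell, and GFI1 and SPI1 rose. Each value was compared with limma on log2(RPKM + 0.1) across all 7820 genes that reached 5 RPKM in at least 3 libraries, and a gene was called at a Benjamini-Hochberg adjusted p under 0.05. By that rule 5 of the 9 tested members were called, 2 higher and 3 lower, where 20.3% of all tested genes were called. The members were chosen with earlier results of these data known, so this share is a description. The remaining 4, RUNX1, LMO2, FLI1 and LYL1, had log2 fold changes between -0.15 and 0.05. The median absolute log2 fold change was 0.33 over the members and 0.16 over all tested genes.

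GATA2, a zinc finger factor needed for stem and progenitor cells, had the largest fall on the log2 scale among the tested members. It read 7, 10 and 12 RPKM in untreated replicates 1 to 3 and 3, 3 and 5 with ATRA, so the groups did not overlap. Its log2 fold change was -1.38 ± 0.326 (SE, adjusted p = 0.0124 by limma). Leaving out untreated replicate 3 (adjusted p = 0.0521) or ATRA replicate 2 (0.0522) ended that call. GATA2 reached 5 RPKM in 7 libraries, the 6 without ATRA and 1 with it, so it passed the filter through the groups where it was high. With both backgrounds averaged, its 6 libraries with ATRA had a mean 2.85 times lower than the 6 without, and rounding to whole numbers alone allows 2.35 to 3.53 times. An antisense transcript, GATA2-AS1, overlaps the gene on the other strand and read 2, 3 and 4 RPKM in untreated cells and 1, 2 and 3 with ATRA. Whether the library kit marked strand is not given in the sources used here, so reads of the pair may not be told apart.

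MYB, a factor that keeps progenitors cycling, read 58, 54 and 64 RPKM untreated and 26, 26 and 33 with ATRA. All 3 ATRA libraries lay below all 3 untreated ones, at a log2 fold change of -1.05 ± 0.139 (adjusted p = 0.00039 by limma). The ratio of the group means was 2.07. Its antisense partner MYB-AS1 stood at 0 or 1 RPKM in every library.

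IRF8, an interferon regulatory factor that steers progenitors to monocytes and dendritic cells, read 57, 58 and 67 RPKM untreated and 49, 43 and 46 with ATRA. The groups did not overlap, and the log2 fold change was -0.40 ± 0.089 (adjusted p = 0.00976 by limma).

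GFI1 read 53, 56 and 57 RPKM untreated and 84, 85 and 86 with ATRA, far apart beside the spread within each group. The log2 fold change was 0.62 ± 0.049 (adjusted p = 1.18e-05 by limma), which is 1.54 times the untreated mean. GFI1 and MYB stood at nearly equal levels in untreated cells, with a GFI1 to MYB ratio of 0.891 to 1.04 in the 3 libraries. With ATRA this ratio was 2.61 to 3.27, with palbociclib 0.968 to 1.09, and with both agents 2.66 to 3.72. The pair was chosen after its values were seen, and the ratio is given as a description.

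SPI1, already the most abundant member, read 80, 86 and 85 RPKM untreated and 108, 102 and 105 with ATRA. Its rise was 0.33 ± 0.051 on the log2 scale (adjusted p = 0.00119 by limma), or 1.25 times, with no overlap between groups. In all, the libraries of 5 members did not overlap between ATRA and untreated cells, where 29.6% of all tested genes had none.

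**Figure D2:**
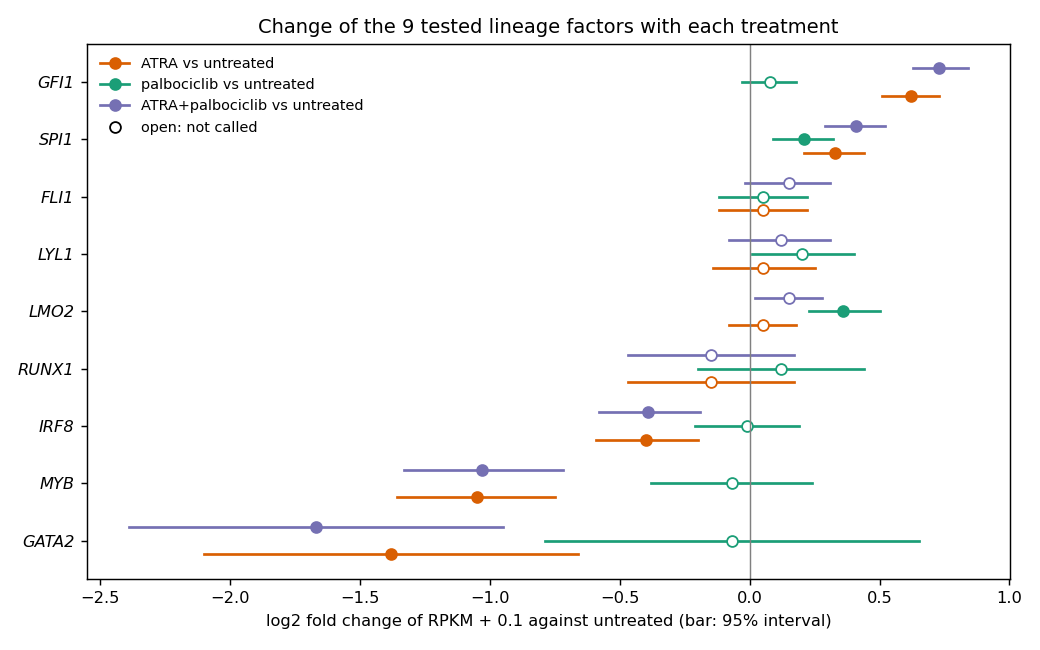
Log2 fold change of each tested member against untreated cells on the horizontal axis, for ATRA, palbociclib and the pair, with 95% intervals from limma; filled points were called and open points were not. The ATRA and ATRA+palbociclib points lie near each other for GATA2, MYB and IRF8 on the left and GFI1 on the right, and LMO2 has its largest value with palbociclib alone, at 0.36.

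Palbociclib alone left most of the 9 tested members without a call. LMO2 and SPI1 were called, both higher, which is 2 of 9 beside 4.07% of all tested genes called in either direction and 0.908% called higher. LMO2, a bridging protein that holds GATA and bHLH factors such as LYL1 in one complex, read 36, 39 and 36 RPKM untreated and 50, 47 and 46 with palbociclib. The groups did not overlap, and the log2 fold change was 0.36 ± 0.059 (adjusted p = 0.00686 by limma), or 1.29 times the untreated mean. Since the groups did not overlap, every same-numbered pair was higher too, which adds no further support. The LMO2 call held without any single library.

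SPI1 read 102, 95 and 93 RPKM with palbociclib, above all 3 untreated libraries. Its log2 fold change of 0.21 ± 0.051 lay at the threshold (adjusted p = 0.0499 by limma), and leaving out any 1 of the 12 libraries ended the call, with adjusted p between 0.0536 (without ATRA replicate 1) and 0.15 (without untreated replicate 1). LYL1, the bHLH partner of LMO2, read 18, 21 and 22 untreated and 25, 22 and 23 with palbociclib, and its log2 difference of 0.20 ± 0.088 was not called (adjusted p = 0.276 by limma). MYB, at 52, 53 and 63 RPKM, IRF8, at 57, 57 and 67, and GATA2, at 6, 10 and 12, overlapped their untreated values with palbociclib. The interval of the difference was -0.38 to 0.24 for MYB, -0.21 to 0.19 for IRF8 and -0.79 to 0.65 for GATA2, so a modest change of GATA2 was not detectable. GFI1 read 56, 58 and 61 RPKM, with an interval of -0.03 to 0.18. Averaged over cells without and with ATRA, 1 member was called for palbociclib, LMO2 (0.23 ± 0.042, adjusted p = 0.0114), where 4.37% of tested genes were called and 0.895% were called higher, and SPI1 missed the threshold (0.14 ± 0.036, adjusted p = 0.0507).

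With both agents, the same 5 members were called against untreated cells as with ATRA alone, which is 5 of 9 beside 30.4% of all tested genes. The ATRA and ATRA+palbociclib comparisons share the untreated libraries. GATA2 read 2, 3 and 4 RPKM with both agents (log2 fold change -1.67 ± 0.326, adjusted p = 0.003), and MYB read 27, 25 and 35 (-1.03 ± 0.139, adjusted p = 0.000302). IRF8 read 49, 43 and 47 RPKM (-0.39 ± 0.089, adjusted p = 0.00801). The risers were GFI1, at 90, 93 and 93 (0.73 ± 0.049, adjusted p = 2.9e-06), and SPI1, at 112, 111 and 110 (0.41 ± 0.051, adjusted p = 0.000185). LMO2 read 43, 39 and 41 RPKM with both agents, below all 3 palbociclib libraries and overlapping the untreated ones at 39, and was not called (0.15 ± 0.059, adjusted p = 0.086).

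Adding palbociclib to ATRA was compared with ATRA alone. None of the 9 members was called, where 0.115% of tested genes were, and at an unadjusted p under 0.05 the count was 1, GFI1 (log2 difference 0.11 ± 0.049, unadjusted p = 0.0401). GFI1 and SPI1 were the members whose 3 libraries did not overlap between these groups, beside 3.39% of all tested genes. LMO2 and SPI1, the members called for palbociclib alone against untreated cells, differed here by 0.10 ± 0.059 and 0.08 ± 0.051. The 95% intervals were -0.28 to 0.33 for MYB, -0.19 to 0.21 for IRF8 and -1.01 to 0.43 for GATA2, the widest. With a replicate block among the 9 treated libraries, whose numbers pair, 188 of all 7820 genes were called, against 9 without it, and still none of the members was; the lowest adjusted p was that of GFI1, at 0.0796.

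The effect of ATRA could be read a second time in libraries that the first comparison did not use, as ATRA+palbociclib against palbociclib. Here 6 of the 9 members were called, 2 higher and 4 lower, beside 12.5% of all tested genes. They were the 5 called with ATRA alone, in the same directions, plus LMO2. The readings were not independent, since deviations of same-numbered ATRA and ATRA+palbociclib libraries correlated at 0.782 to 0.908 over the tested genes. Both also used the same estimate of the spread, from all 12 libraries. GFI1 was higher by 0.66 ± 0.049 on the log2 scale (adjusted p = 7.72e-06 by limma) and SPI1 by 0.20 ± 0.051 (0.0258). GATA2 (-1.60 ± 0.326, adjusted p = 0.00815), MYB (-0.96 ± 0.139, 0.000979) and IRF8 (-0.38 ± 0.089, 0.0175) were lower. The libraries of these 5 did not overlap between the groups, so all same-numbered pairs moved one way, which adds no further support. The replicate block among the 9 treated libraries called 2813 of all 7820 tested genes here, against 977. It kept all 6 members and added RUNX1 (-0.27 ± 0.021, adjusted p = 0.000991 by limma).

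LMO2 was lower with both agents than with palbociclib alone, at -0.22 ± 0.059 (adjusted p = 0.0353 by limma), while ATRA alone left it at 40, 37 and 38 RPKM beside 36, 39 and 36 untreated. The departure from additivity was the lowest unadjusted p of any member (-0.27 ± 0.084, interval -0.45 to -0.08, unadjusted p = 0.00878), but its adjusted p by limma was 1. LMO2 was the 1 member at an unadjusted p under 0.05. Of all 7820 genes, 236 were at an unadjusted p under 0.05 and 0 were called by limma, so no member was shown to respond to the pair otherwise than by the sum of both agents on the log2 scale. Several calls for ATRA+palbociclib against palbociclib lay near the threshold and were lost when 1 library was left out. LMO2 lost its call without ATRA replicate 3, any palbociclib replicate, or ATRA+palbociclib replicate 2 or 3 (adjusted p 0.0525 to 0.137). SPI1 lost it without palbociclib replicate 2 or 3 or any ATRA+palbociclib replicate (0.0544 to 0.0946), and IRF8 without palbociclib replicate 3 (0.0743) or ATRA+palbociclib replicate 2 (0.0782).

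**Figure D3:**
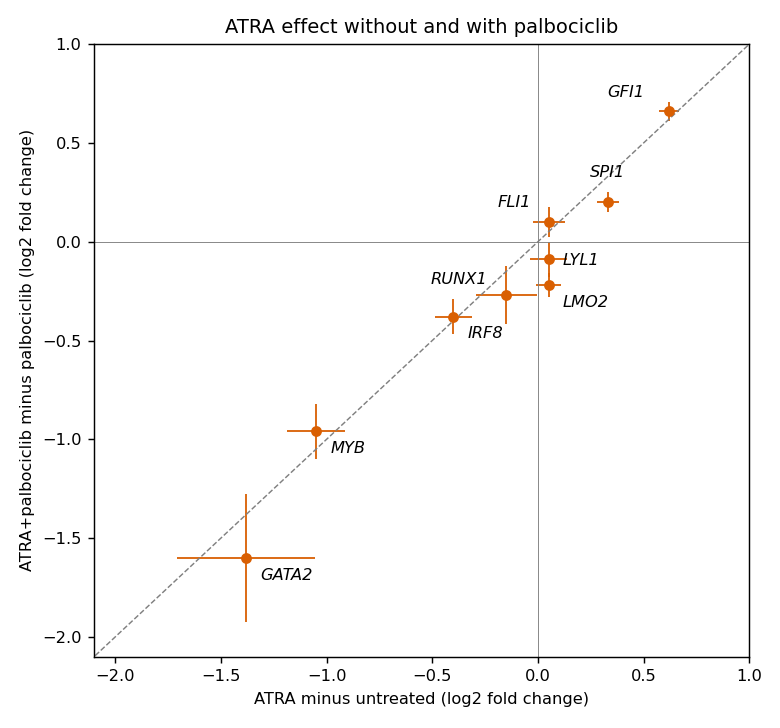
Log2 fold change with ATRA in otherwise untreated cells (horizontal) and in palbociclib-treated cells (vertical) for the 9 tested members, with bars of 1 SE. The 2 axes share no library, but same-numbered treated libraries share deviations, so the axes are not independent. The dashed line marks equality. GATA2, MYB, IRF8, SPI1 and GFI1 lie in the same quadrant on both axes, and LMO2 lies at 0.05 on one and at -0.22 on the other.

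Averaged over both backgrounds, ATRA was called for 5 of the 9 members, beside 28.4% of all tested genes. The averages were -1.49 ± 0.231 for GATA2 (adjusted p = 0.000644), -1.0 ± 0.098 for MYB (2.43e-05), -0.39 ± 0.063 for IRF8 (0.000923), 0.64 ± 0.034 for GFI1 (2.9e-07) and 0.26 ± 0.036 for SPI1 (0.000285). Libraries with and without ATRA did not overlap for 4 of them, beside 11.4% of tested genes. SPI1 was the exception, since palbociclib replicate 1 without ATRA, at 102 RPKM, equalled ATRA replicate 2. All 5 also passed an adjusted p under 0.001 in this average, where 9.62% of tested genes did. At that level 2 members were called for ATRA alone (4.72% of tested genes), 3 for the pair against untreated (8.04%), 2 for the pair against palbociclib (3.11%) and none for palbociclib, alone (0.499%) or on average (0.575%).

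RUNX1, FLI1 and LYL1 were called in none of the 8 comparisons when libraries were not paired by replicate number. RUNX1, a core binding factor of stem cells and all myeloid lineages, read 11, 11 and 10 RPKM untreated, 8, 10 and 11 with ATRA, 10, 12 and 13 with palbociclib, and 8, 10 and 11 with both. Its average ATRA difference was -0.21 ± 0.103 (adjusted p = 0.154). The 3 treated groups share their deviations replicate by replicate, and when same-numbered libraries among these 9 were compared within their number, as a replicate block, RUNX1 passed the threshold for both agents against palbociclib (adjusted p = 0.000991, against 0.304 without the block), being lower in 3 of 3 pairs. Its values with ATRA and with both agents were the same whole numbers in each replicate, and its SE in that blocked fit was 0.021, against 0.145.

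FLI1, an ETS factor of stem cells and megakaryocytes, stayed between 9 and 11 RPKM in all 12 libraries, with an average ATRA difference of 0.07 ± 0.053. LYL1 ranged from 18 to 25 RPKM, and its average ATRA difference was -0.02 ± 0.062, with an interval of -0.16 to 0.12. KLF4, a zinc finger factor of monocytes, was at 2 RPKM in each untreated library, at 0, 1 and 1 with ATRA, at 1 in each palbociclib library, and at 0, 1 and 1 with both. At these values a step of 1 is most of the signal, and with the filter lowered to 1 RPKM its average ATRA difference was not called (adjusted p = 0.197 by limma).

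The network around the members was described with 4 lists of 123 genes in all, of which 53 were tested. Of the 70 that were not, 37 were at 0 in all libraries. The lists were chosen with earlier results of these data known, so the shares called in them are descriptions. Among 41 close relatives of the members, 13 were tested, and ATRA averaged over both backgrounds was called higher for 5 and lower for 3, beside the 28.4% of all tested genes. The median log2 fold change over the 13 was 0.04, and over all tested genes it was -0.01. IRF1, an interferon regulatory factor of the IRF8 family, read 2, 2 and 1 RPKM untreated and 7, 7 and 6 with ATRA (average log2 fold change 1.91 ± 0.151, adjusted p = 5.12e-06), so it moved opposite to IRF8. RUNX3 read 3, 2 and 3 untreated and 5, 6 and 6 with ATRA (1.13 ± 0.137, adjusted p = 0.000122). IRF1 and RUNX3 passed the filter only through libraries with ATRA, so they had to differ. Among ETS relatives of SPI1 and FLI1, ELF4 (1.00 ± 0.079) and ETV6 (0.57 ± 0.041) rose. In the KLF family KLF13 rose (0.79 ± 0.114), and KLF16 fell from 11, 11 and 10 RPKM untreated to 5, 4 and 5 with ATRA (average -1.06 ± 0.077). With palbociclib, none of the 13 was called by limma against untreated cells, beside 4.07% of all tested genes, and 3 were at an unadjusted p under 0.05.

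Among 35 other factors of blood cell identity, 11 were tested, and ATRA was called higher for 2 and lower for 2, which is 36.4% beside 28.4% of all tested genes. NFE2, a bZIP factor known from erythroid and megakaryocytic cells and also expressed in neutrophils, read 2, 4 and 5 RPKM untreated and 10, 15 and 15 with ATRA (average log2 fold change 1.75 ± 0.216, adjusted p = 0.000139). ID1, an inhibitor of bHLH factors, was listed at 0 in all 3 untreated libraries and read 5, 7 and 7 with ATRA, so no fold is given, and it too passed the filter only through libraries with ATRA. HHEX, a homeobox factor of blood progenitors, fell from 19, 21 and 19 RPKM to 11, 10 and 11 (average -0.92 ± 0.056, adjusted p = 6.75e-07). MEF2D, a MADS box factor, fell by 0.30 (SE 0.06). None of the 11 was called by limma for palbociclib alone, beside 4.07% of all tested genes, with 2 at an unadjusted p under 0.05.

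Of 23 cofactors that bind the members, 15 were tested, and ATRA was called lower for 6 and higher for 1, which is 46.7% beside 28.4% of all tested genes. The changes were small, with a median log2 fold change of -0.12 over the 15. LDB1, the adaptor that LMO2 bridges to DNA-bound factors, fell from 22, 21 and 20 RPKM to 16, 16 and 18 (average -0.33 ± 0.05, adjusted p = 0.00064). KDM1A, the histone demethylase recruited by GFI1, fell from 36, 37 and 37 RPKM to 31, 29 and 29 (-0.27 ± 0.035, adjusted p = 0.000195). With palbociclib alone 1 of the 15 cofactors was called (6.67%, beside 4.07% of all tested genes), CBFB, the partner subunit of RUNX1. It was at -0.33 ± 0.073 against untreated cells with palbociclib and with ATRA, in comparisons that share the untreated libraries. ATRA+palbociclib differed by -0.06 from either agent alone, not called. Averaged over both backgrounds, CBFB was at -0.20 for each agent, called for ATRA (adjusted p = 0.0162 by limma) and not for palbociclib (0.0584).

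Among 24 genes known as targets of the members, 14 were tested, and ATRA was called higher for 4 and lower for 7, which is 78.6% beside 28.4% of all tested genes. This list too was chosen with earlier results known, so its share is no test of targets as a set. CSF3R, the granulocyte colony-stimulating factor receptor, rose from 4 RPKM in each untreated library to 8, 12 and 14 (average log2 fold change 1.38 ± 0.158, adjusted p = 8.12e-05). CYBB, the membrane subunit of the phagocyte oxidase, rose from 25, 28 and 27 RPKM to 50, 73 and 75 (1.23 ± 0.134), and CSF2RA, a receptor subunit for granulocyte-macrophage colony-stimulating factor, was called higher (0.58 ± 0.077). CSF2RA, 1 of the 4 called higher, passed the filter only through libraries with ATRA, so it had to differ. MYC, a growth regulator, fell from 168, 184 and 205 RPKM to 72, 73 and 103 (-1.17 ± 0.126, adjusted p = 5.03e-05), and BCL2, an inhibitor of apoptosis, fell from 13 RPKM in each untreated library to 8 in each ATRA library (-0.65 ± 0.047). LYZ, the lysozyme gene of granules, also fell (-0.58 ± 0.082). CCNA2, the cyclin A2 gene, was the 1 of 14 targets called with palbociclib (7.14%, beside 4.07% of all tested genes), lower by 0.41 on the log2 scale against untreated cells (SE 0.064, adjusted p = 0.00583 by limma).

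**Figure D4:**
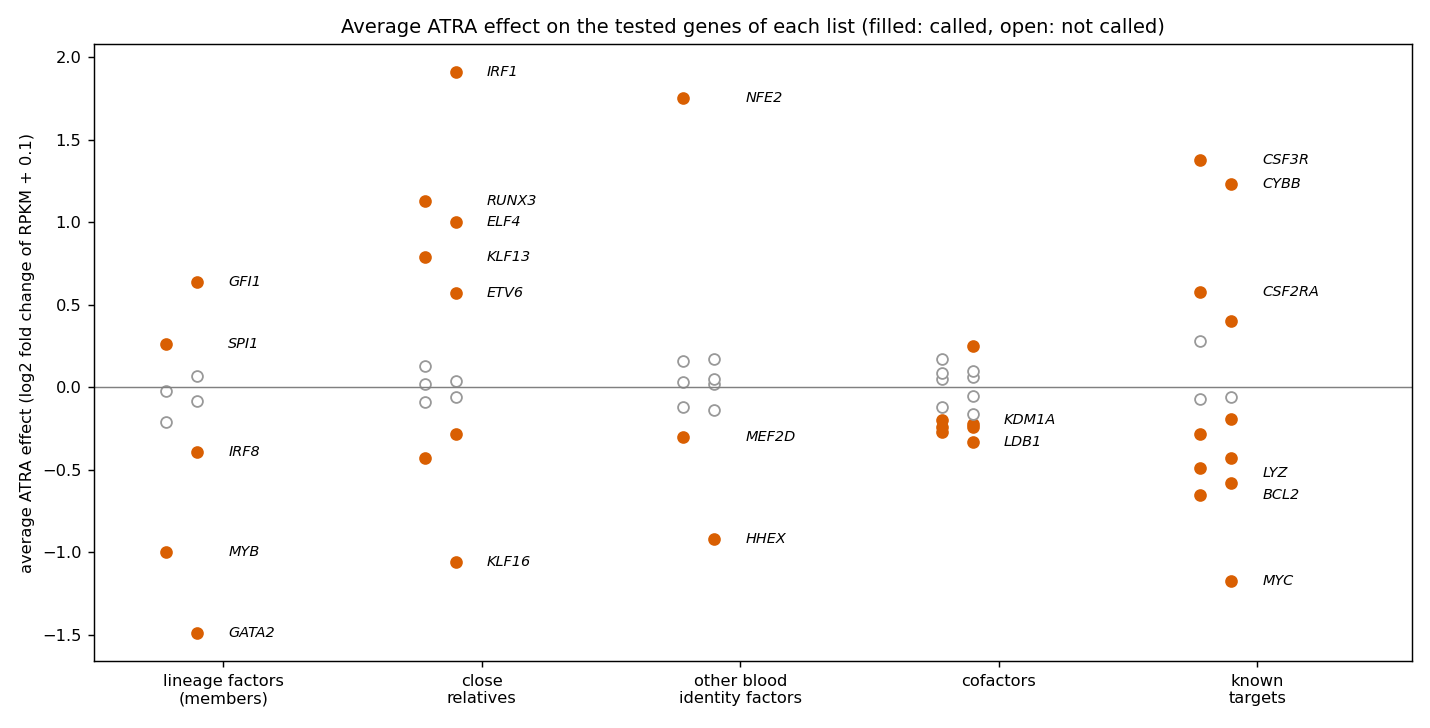
Average ATRA effect, as log2 fold change of RPKM + 0.1, for each tested gene of the members and of the 4 lists; filled points were called and open points were not. Labels mark the called members and the called list genes named for their large effects, so CBFB, CCNA2 and the members not called carry none. ID1, listed at 0 in untreated cells, is left out of the plot. The members span from -1.49 for GATA2 to 0.64 for GFI1, and the relatives from -1.06 for KLF16 to 1.91 for IRF1.

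For the 4 members with the strongest differences across the groups, the tested genes with the most similar pattern over the 12 libraries were named by Pearson correlation of log2(RPKM + 0.1), as a description. The libraries fall into groups by ATRA and share that structure. MYB was most like MYC (r = 0.994), then TLR2 (0.988) and MARS2 (0.983). GFI1 was most like CCL2 (0.991), ITGA5 (0.989) and SLA (0.989). SPI1 was most like PEX16 (0.975), PLEKHO2 (0.967) and DNTTIP1 (0.965). For LMO2 the nearest were MARS, a methionyl-tRNA synthetase (0.952), PCK2, the mitochondrial phosphoenolpyruvate carboxykinase (0.937), and TSPYL1 (0.913). MARS read 41, 42 and 42 RPKM untreated and 48, 48 and 49 with palbociclib, and PCK2 read 11, 12 and 11 untreated and 16, 15 and 17. Both had their highest mean with palbociclib alone, as LMO2 did, which their choice by correlation with LMO2 favours.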

How the data were processed

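Polyadenylated RNA of 12 HL-60 libraries was sequenced by the authors, aligned to hg38 with HISAT2 and counted with HTSeq; versions are not given in the sources used here. The authors deposited RPKM rounded to whole numbers, treated here as a rounded score with a step of 1, for 58233 genes. Differences were tested with limma 3.58.1 (R 4.3.3) on log2(RPKM + 0.1), with 1 mean per group, all 12 libraries, a trended variance and genes at 5 RPKM or more in at least 3 libraries (7820), and p-values were adjusted over all of them in each of 8 comparisons; intervals are 95%. The code was tested on simulated data. The members and lists were chosen with earlier results of these data known. Every member is named; from each list, at most 6 called genes with the largest average effect and no overlap between groups, and any list count of 5 or fewer that had to be identified (CBFB, CCNA2). Deviations of same-numbered libraries correlated at 0.438 to 0.908 among the treated groups and at 0.045 to 0.367 between untreated and treated ones. The numbers thus pair the treated libraries, and the untreated ones share little of that structure. Any difference of the untreated libraries in culture or handling would enter every comparison against untreated cells, and it was not tested. Depth is not known from RPKM, and rounding limits genes near the filter.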

Additional observations from a re-analysis of the deposited data

How the results depend on the processing

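The 5 members called in the average ATRA effect kept their call under every alternative run. The count of members called for ATRA alone was 2 at an adjusted p under 0.001, against 5. For palbociclib alone it was 1 with a pseudocount of 1 or 0.5, with median centring, or with only the libraries compared, and 0 at 0.001, against 2, and leaving out each library in turn gave 1 to 1. Of all 7820 genes, 322 and 323 were called with these pseudocounts, 198 with median centring and 199 with only the libraries compared, against 318. For ATRA+palbociclib against untreated it was 3 at 0.001. For ATRA+palbociclib against palbociclib, it was 2 at 0.001 and 2 with only the libraries compared, against 6, where leaving out 1 library gave 3 to 6, with 3 without palbociclib replicate 3 or ATRA+palbociclib replicate 2. Calls among all 7820 genes were 620 with only the libraries compared, and 681 and 666 without these replicates, against 977. For the average palbociclib effect it was 2 with the filter at 1 RPKM or no filter and 0 at 0.001, against 1. All-gene calls were 456 of 14003 with the filter at 1 RPKM and 433 of 15220 with no filter, against 342 of 7820. With the replicate block over all 12 libraries the palbociclib average called 3, adding SPI1 (adjusted p = 0.0227 by limma) and GFI1 (0.0262). Of all 7820 genes, 1025 were called there, against 342. RUNX1 passed for the ATRA average (0.0452), where 3365 genes were called, against 2220. The pair against untreated called 7 members, against 5, adding LMO2 (0.0419) and FLI1 (0.04), where 3538 genes were called, against 2377. This block also paired untreated libraries by number, though their deviations correlated with same-numbered treated ones at only 0.045 to 0.367. Signs turned only for differences near 0 that were not called: with median centring LYL1 was at 0.0015 for ATRA and MYB at 0.04 for palbociclib, and leaving out 1 library gave -0.06 to 0.02 for LYL1 with ATRA, and for palbociclib -0.04 to 0.04 for IRF8, -0.0038 to 0.12 for RUNX1 and -0.09 to 0.04 for MYB. Median centring moved the split of all genes called for palbociclib on average from 70 higher and 272 lower to 111 and 122, for palbociclib alone from 71 and 247 to 97 and 101, for ATRA alone from 681 and 909 to 696 and 535, and for the pair against untreated from 996 and 1381 to 1152 and 793. The causes of these moves were not tested. Whole-number values limit GATA2, RUNX1, FLI1 and KLF4 most.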
